A study of Mus musculus with 4 samples.

Results

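The 8 genes described here mark mast cells and their granule proteases: Cma1, Mcpt4, Tpsb2, Cpa3, Fcer1a, Ms4a2, Hdc and Kit, of the 32287 genes counted. They were chosen by name, and each was followed as UMIs (unique molecular identifiers, 1 per captured RNA molecule) in the spots of a Visium array, on which every spot captures the RNA of the tissue above it and may hold several cells. The tissue was the popliteal lymph node (PLN), which drains the ankle and hindpaw, of male C57BL/6 mice that all received Evan's blue dye in the hindpaw. There were 4 capture areas. The WT area held 10 PLNs of 5 Wild-type mice aged 5.5 months, the Early area held 6 PLNs of 3 TNF-Tg mice aged 5.5 months with Early arthritis, and the areas Advanced 1 and Advanced 2 each held 6 PLNs of 3 TNF-Tg mice aged 8.5 to 9 months with Advanced arthritis. TNF-Tg mice carry a human TNF transgene and develop arthritis from it. The PLNs of an area were pooled on the array with no map from spot to mouse. Each area therefore counts as 1 sample, and WT and Early have no replicate area. Disease stage and age cannot be told apart between Early and Advanced, nor can TNF-Tg arthritis and age between WT and Advanced.

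Mast cells are tissue-resident granulocytes that sit near vessels, nerves and fat and along the capsule and sinuses of lymph nodes. Antigen that crosslinks IgE on their high-affinity receptor FcεRI makes them release granules filled with histamine, heparin and proteases, and survival of the cells depends on the receptor tyrosine kinase KIT and its ligand. In the mouse, the connective tissue type carries the chymases Cma1 and Mcpt4, the tryptase Tpsb2 and the carboxypeptidase Cpa3, whereas the mucosal type carries Mcpt1 and Mcpt2.

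The genes lie in GRCm38 (GENCODE M21) at chr14:55941451-55944675 on the minus strand for Cma1 and chr14:56059629-56062313 on the minus strand for Mcpt4, which places both chymases in the same stretch of chromosome 14. Tpsb2 lies at chr17:25366305-25369098 on the plus strand, Cpa3 at chr3:20215620-20242181 on the minus strand, Fcer1a at chr1:173221284-173227214 on the minus strand, Ms4a2 at chr19:11615523-11623719 on the minus strand, Hdc at chr2:126593667-126619299 on the minus strand and Kit at chr5:75574916-75656722 on the plus strand. All are annotated as protein-coding. Near-identical copies matter for a protease family, so runs of 90 bases shared between annotated transcripts were counted. Mcpt4 shared 1.1% of its runs with Cma2, which had 0 UMIs on every area, and no run of the other 7 genes was shared with the related genes compared.

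The promoters of 3 proteases, Cma1, Mcpt4 and Cpa3, are shown to give the sequence before the genes that carry most of the values below. RefSeq (GRCm38.p6) had an entry for 7 of the 8 genes, and none for Tpsb2. The 250 bases before the annotated start were searched on both strands for GATAA, the letters bound by GATA factors such as the protein of Gata2, and for TATAAA, the TATA box. Matches are in capitals, and a match on the other strand appears as the reverse complement. The windows are chr14:55944676-55944925 for Cma1, chr14:56062311-56062560 for Mcpt4 and chr3:20242182-20242431 for Cpa3, all on the minus strand and written 5′ to 3′.
Cma1: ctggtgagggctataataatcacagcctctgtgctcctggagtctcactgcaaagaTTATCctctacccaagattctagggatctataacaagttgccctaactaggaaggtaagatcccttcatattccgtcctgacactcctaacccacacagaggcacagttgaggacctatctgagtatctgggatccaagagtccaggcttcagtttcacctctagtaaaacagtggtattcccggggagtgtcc
Mcpt4: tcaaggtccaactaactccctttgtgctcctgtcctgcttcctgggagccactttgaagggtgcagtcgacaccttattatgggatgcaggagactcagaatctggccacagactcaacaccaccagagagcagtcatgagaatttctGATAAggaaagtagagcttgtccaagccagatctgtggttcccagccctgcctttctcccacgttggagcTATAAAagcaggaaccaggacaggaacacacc
Cpa3: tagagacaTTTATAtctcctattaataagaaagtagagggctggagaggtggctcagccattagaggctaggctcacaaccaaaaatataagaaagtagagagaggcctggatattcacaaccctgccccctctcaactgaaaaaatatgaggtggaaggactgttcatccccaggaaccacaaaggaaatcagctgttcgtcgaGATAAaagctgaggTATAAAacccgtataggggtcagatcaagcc
GATAA was in the window of 5 of the 7 genes (Cma1, Mcpt4, Cpa3, Fcer1a and Ms4a2) and in 23.0% of the 27025 promoters of the same length. TATAAA was in 3 of the 7 windows and in 13.0% of all promoters, and in Mcpt4 and Cpa3 it began 32 and 31 bases before the start. The E-box letters CATGTG, read by MITF among other factors, were in 1 of the 7 windows (Fcer1a), against 12.2% of all promoters. A second E-box, CACGTG, was in 0 of the 7 windows and in 6.0% of all promoters. These matches describe the letters in these windows.

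The areas held 833, 1489, 2015 and 1782 spots under tissue (WT, Early, Advanced 1 and Advanced 2) and 1808678, 5180493, 3378219 and 3198238 UMIs. The spots at the rim were the deeper ones. A spot was called an edge spot when at least 1 of its 6 neighbouring array positions was free of tissue, and the median edge spot held between 2113 and 5594 UMIs against 140.5 to 250.5 in the interior. Touching PLNs form a joint piece of tissue, so a border between them counts as interior. On WT 828 of the 833 spots formed a single piece. At least 500 UMIs were held by 138 of 580 interior spots on WT, 303 of 1018 on Early, 574 of 1700 on Advanced 1 and 493 of 1380 on Advanced 2. What lay under the shallower interior spots was not tested, so interior need not mean the inside of a node. Because depth differed, levels are given per 10000 UMIs, with exact 95% Poisson intervals that cover counting error only. Between 464 and 1050 spot barcodes were shared by any pair of areas, as the array positions carry the same barcode list on every area. A lower level of a gene in a spot can mean fewer mast cells or less RNA in each, which cannot be told apart.

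The 4 proteases carried most UMIs of the 8 genes, with 748 UMIs on WT, 1232 on Early, 807 on Advanced 1 and 802 on Advanced 2. Cma1 (an α-chymase) had 247, 404, 260 and 288 UMIs, or 1.37 (1.20 to 1.55), 0.780 (0.706 to 0.860), 0.770 (0.679 to 0.869) and 0.900 (0.799 to 1.01) per 10000. Mcpt4 (a β-chymase) had 261, 462, 306 and 282 UMIs, or 1.44 (1.27 to 1.63), 0.892 (0.812 to 0.977), 0.906 (0.807 to 1.01) and 0.882 (0.782 to 0.991) per 10000. For both chymases the WT interval lay above those of the 3 TNF-Tg areas, whose intervals overlapped each other.

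Tpsb2 (a tetrameric trypsin-like enzyme) had 157, 220, 131 and 140 UMIs, or 0.868 (0.738 to 1.01), 0.425 (0.370 to 0.485), 0.388 (0.324 to 0.460) and 0.438 (0.368 to 0.517) per 10000, again highest on WT and without overlap of its interval with the others. Cpa3 (carboxypeptidase A3, stored with the chymases on heparin) had 83, 146, 110 and 92 UMIs, or 0.459 (0.366 to 0.569), 0.282 (0.238 to 0.331), 0.326 (0.268 to 0.392) and 0.288 (0.232 to 0.353) per 10000. Its WT value was the highest, but the WT interval overlapped that of Advanced 1. The ratio of Advanced 1 to WT was 0.710, with an interval (0.529 to 0.955) that did not hold 1.

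The receptor genes were sparse. Fcer1a, the IgE-binding α chain of FcεRI, had 15, 22, 10 and 15 UMIs, and Ms4a2, its β chain, had 2, 17, 11 and 8. Per 10000 UMIs these were 0.0829, 0.0425, 0.0296 and 0.0469 for Fcer1a and 0.0111, 0.0328, 0.0326 and 0.0250 for Ms4a2, with intervals that overlapped between all areas. The ratio of Advanced 1 to WT for Fcer1a was nevertheless 0.357 (0.143 to 0.849), from 10 and 15 UMIs. For both genes the intervals of all other ratios between areas held 1. Kit, the receptor for stem cell factor, had 35, 95, 79 and 82 UMIs, or 0.194 (0.135 to 0.269), 0.183 (0.148 to 0.224), 0.234 (0.185 to 0.291) and 0.256 (0.204 to 0.318) per 10000. Its lowest values were on Early and WT, and the ratio of Advanced 2 to Early was 1.40 (1.03 to 1.90), whereas the intervals of the other 5 ratios between areas held 1.

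Hdc, the histidine decarboxylase that makes histamine, split the Advanced areas. It had 36 UMIs on WT, 42 on Early, 15 on Advanced 1 and 62 on Advanced 2, or 0.199 (0.139 to 0.276), 0.0811 (0.0584 to 0.110), 0.0444 (0.0249 to 0.0732) and 0.194 (0.149 to 0.249) per 10000. Advanced 2 was 4.37-fold above Advanced 1 (2.45 to 8.26, exact interval, counting error only), whereas for the summed proteases that ratio was 1.05 (0.951 to 1.16). Basophils also make histamine, and 6 basophil genes had 4, 37, 21 and 30 UMIs in all. Among them the basophil protease Mcpt8 had 0, 3, 0 and 7, which for the Advanced areas runs the same way as Hdc. Prss34 ran the other way, with UMIs on Advanced 1 and none on Advanced 2. The part of basophils in the Hdc difference was not tested. Tpsab1, the tryptase beside Tpsb2, ran the same way as Hdc, with 30 UMIs on Advanced 1 and 70 on Advanced 2. Its ratio of Advanced 2 to Advanced 1 was 2.46 (1.59 to 3.92). Relative to WT, Tpsab1 was 1.60 (0.886 to 3.08) on Early, 1.15 (0.590 to 2.34) on Advanced 1 and 2.83 (1.58 to 5.44) on Advanced 2. Tpsb2 in contrast was highest on WT.

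**Figure D1:**
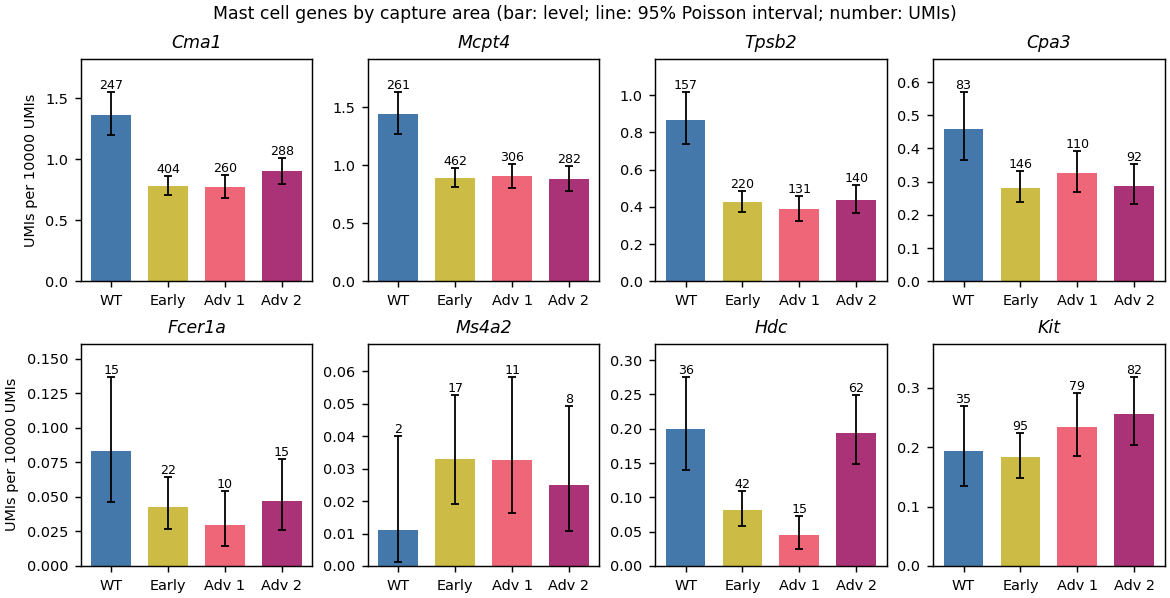
Each panel is a gene, and each bar its level in UMIs per 10000 UMIs on a capture area (WT, Early, Advanced 1, Advanced 2), with the exact 95% Poisson interval as a line and the UMIs as a number. The 4 proteases were highest on WT (for Cma1 1.37 against 0.770 to 0.900), Hdc was low on Advanced 1 (15 UMIs), and the Kit values ran from 0.183 on Early to 0.256 on Advanced 2.

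Other genes of mast cells were detected as well. Of 30 further genes listed as mast cell genes, 25 had at least 20 UMIs over the 4 areas. The list includes Kitl and Il33, the ligands of KIT and of the receptor Il1rl1, so a change in either need not come from mast cells. Among the more restricted of them, Tpsab1 had 14, 64, 30 and 70 UMIs, Mrgprb1 (a Mas-related receptor) 25, 39, 38 and 43, Mrgprb2 (the receptor for basic secretagogues) 3, 14, 9 and 16, Il1rl1 (the IL-33 receptor) 20, 26, 24 and 29, Gata2 46, 60, 47 and 68, Hpgds (prostaglandin D synthase) 28, 43, 37 and 44, Slc45a3 85, 80, 97 and 72, Slc18a2 (the vesicular monoamine transporter) 14, 14, 11 and 12, Tph1 7, 19, 14 and 20, Mitf 13, 63, 54 and 33, Hs3st1 28, 91, 64 and 59, Alox5 23, 20, 11 and 27, Ctsg 14, 20, 19 and 12, and Tpsg1 1, 5, 10 and 6. Genes that many other cells also use were far more abundant, with 8215 UMIs of Srgn (the granule proteoglycan serglycin), 7417 of Cd63, 5708 of Fcer1g (the γ chain of FcεRI), 1576 of Lat2, 1501 of Il33, 1068 of Alox5ap, 773 of Ltc4s, 602 of Ndst2, 470 of Kitl and 197 of Ptgs1 over the 4 areas.

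The mucosal proteases were scarce beside the connective tissue ones. Mcpt1 had 0, 0, 3 and 1 UMIs and Mcpt2 had 10, 17, 23 and 4, while Cma2 and Mcpt9 had 0 on every area, and Gata1 (8) and Rab27b (16) stayed under 20 in all. Melanocytes also carry Kit, and their 5 markers had 5, 7, 16 and 27 UMIs in all, from Tyr and, on the TNF-Tg areas, Pmel, with Dct, Tyrp1 and Mlana at 0 on every area. Their part in the Kit values was not tested.

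Whether mast cell genes differed between the groups was asked with edgeR's quasi-likelihood test on counts summed per area, adjusted over all 13102 genes tested (Benjamini-Hochberg). Only the 2 Advanced areas give a spread in that fit, with 1 residual degree of freedom, and WT and Early are assumed to vary like them. The Advanced mice were also older than the WT mice, and the part of age was not tested. In Advanced against WT, Cma1 fell by 0.82 on the log2 scale (SE 0.21, adjusted p = 0.00552), Mcpt4 fell by 0.80 (SE 0.21, adjusted p = 0.00633) and Tpsb2 fell by 1.18 (SE 0.24, adjusted p = 6.5e-05). These 3 of the 8 genes were called, against 2.08% of all genes. Cpa3 had -0.69 (SE 0.28, adjusted p = 0.251), Fcer1a -1.22 (adjusted p = 0.546), Hdc -0.86 (adjusted p = 0.408), Kit 0.23 (SE 0.35, adjusted p = 0.905) and Ms4a2 1.24 (adjusted p = 0.825), none of which passed. The median of the 8 genes was -0.81 beside 0.01 for all genes tested. The tryptase Tpsab1, on the list of other mast cell genes, had 0.87 (SE 0.50), opposite in sign to Tpsb2, and was not called. Of 24 other genes of the mast cell list, 3 fell (Fcer1g, Slc45a3 and the ligand gene Il33) and 0 rose.

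In Early against WT, Cma1 fell by 0.84 (SE 0.24, adjusted p = 0.0187) and Tpsb2 fell by 1.06 (SE 0.26, adjusted p = 0.00426), 2 of the 8 genes against 2.8% of all genes. Mcpt4 had -0.73 (SE 0.23, adjusted p = 0.0611), Cpa3 -0.74 (SE 0.31, adjusted p = 0.276) and Hdc -1.33 (SE 0.47, adjusted p = 0.121). The comparison shares the WT area with the former. Tpsab1 had 0.64 (SE 0.53) in Early against WT, again opposite in sign to Tpsb2 and not called. The median of the 8 genes was -0.79 beside 0.01, and of the 24 other mast cell genes tested only Slc45a3 passed, which fell by 1.64 (SE 0.34, adjusted p = 0.000205). In Advanced against Early no gene of the 8 was called by edgeR (0 at an unadjusted p under 0.05, and 0 by DESeq2), against 1.16% of all genes, with differences of 0.02 (SE 0.20) for Cma1, -0.08 (SE 0.20) for Mcpt4, -0.12 (SE 0.23) for Tpsb2 and 0.04 (SE 0.26) for Cpa3. The median there was -0.03 beside 0.01. Of 24 other genes of the mast cell list 1 fell, the ligand gene Il33 (-0.97, SE 0.20, edgeR's adjusted p = 0.000144).

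For Hdc the difference rested on which Advanced area was used. It was -0.14 against WT without Advanced 1 and -2.28 without Advanced 2, and 1.19 and -0.95 against Early. The called protease differences were between -1.29 and -0.70 when either Advanced area was left out, as values with no test. DESeq2's Wald test with the same terms called 0 of the 6 genes to which it gave an adjusted p in Advanced against WT (3 at an unadjusted p under 0.05, adjusted p = 0.523 for Tpsb2) and 0 of 5 in Early against WT (2 at an unadjusted p under 0.05).

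Summed over edge spots alone, Tpsb2 was called in Advanced against WT (adjusted p = 0.0438) and Cma1, Mcpt4 and Tpsb2 in Early against WT (adjusted p = 0.0308, 0.0299 and 0.0133), and over interior spots edgeR called 0 in either, with 4 and 1 at an unadjusted p under 0.05. In the interior the difference between Early and WT was -0.0011 for Cma1 (SE 0.36), 0.060 for Tpsb2 (SE 0.42), 0.22 for Mcpt4 (SE 0.35) and 0.25 for Cpa3 (SE 0.62), so it was near 0 for Cma1 and turned in sign for the other 3. Advanced against Early also went in different directions: over edge spots it was 0.40 for each of Cma1, Mcpt4 and Tpsb2, and over interior spots it was -0.69 (SE 0.28), -0.94 (SE 0.27) and -0.98 (SE 0.32). EdgeR called 0 in either (0 of 7 and 3 of 6 at an unadjusted p under 0.05). The counts for edge spots alone and interior spots alone were not set against the share of all genes in the same fits.

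The scale changed the order of the groups. Counted per PLN instead of per 10000 UMIs, the proteases had 74.8 UMIs on WT, 205.3 on Early, 134.5 on Advanced 1 and 133.7 on Advanced 2. Other cell type genes also differed between the areas, some in the direction of the proteases and some against it. B cell genes had 18.3 UMIs per 10000 on WT against 27.0 to 34.1 on the TNF-Tg areas, and sinus macrophage genes had 35.6 against 19.5 to 25.9. The 12 collagen and matrix genes had 14.96 on WT, 12.3 on Early, 13.6 on Advanced 1 and 8.87 on Advanced 2. Of these 12, Dcn and Lum fell in both comparisons with WT and the others did not pass. Set against 100 UMIs of the collagen and matrix genes, the proteases had 27.6 on WT, 19.4 on Early, 17.5 on Advanced 1 and 28.3 on Advanced 2. Against the sinus macrophage genes these were 11.6, 9.20, 12.3 and 10.3, and against the B cell genes 22.6, 6.97, 8.07 and 9.28, so the order of the areas depended on the genes used as the base. The part of these cell types in the difference from WT was not tested.

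The second question was whether the genes lie at the edge. Of the protease UMIs, 83.6% on WT, 61.6% on Early, 51.9% on Advanced 1 and 69.3% on Advanced 2 were in edge spots. The edge spots also held 79.3%, 75.4%, 47.9% and 64.5% of all UMIs, however. Per 10000 UMIs the proteases had 4.36 at the edge against 3.29 in the interior on WT, 1.94 against 3.71 on Early, 2.59 against 2.20 on Advanced 1 and 2.69 against 2.17 on Advanced 2. The ratio of edge to interior was thus 1.32 (1.09 to 1.62), 0.523 (0.466 to 0.588), 1.18 (1.02 to 1.35) and 1.24 (1.07 to 1.45), below 1 on the Early area and above 1 on the other 3.

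By gene, Cma1 had 1.41 at the edge and 1.20 in the interior on WT, 0.625 and 1.26 on Early, 0.767 and 0.772 on Advanced 1 and 0.95 and 0.811 on Advanced 2. Mcpt4 had 1.51 and 1.20, 0.706 and 1.46, 0.958 and 0.858, and 0.998 and 0.670 on the same areas. On Early the ratio of edge to interior was 0.497 (0.406 to 0.611) for Cma1 and 0.484 (0.400 to 0.586) for Mcpt4, and on the other areas it lay between 0.992 and 1.49. Tpsb2 had 0.927 and 0.642 on WT, 0.335 and 0.699 on Early, 0.495 and 0.290 on Advanced 1 and 0.436 and 0.441 on Advanced 2. Cpa3 had 0.516 and 0.241, 0.276 and 0.298, 0.371 and 0.284, and 0.310 and 0.247.

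The rarer genes were near the limit of counting in the interior. Kit had 33 edge and 2 interior UMIs on WT, 66 and 29 on Early, 39 and 40 on Advanced 1 and 47 and 35 on Advanced 2, and its edge ratio was 4.30 (1.1 to 37.0) on WT and between 0.738 and 1.06 elsewhere. Hdc had 30 and 6, 23 and 19, 5 and 10, and 39 and 23, and was lower at the edge on Early (0.395, 0.206 to 0.766). Fcer1a had 14 and 1, 15 and 7, 5 and 5, and 10 and 5 UMIs, and Ms4a2 had 2 and 0, 10 and 7, 6 and 5, and 5 and 3. The count of 0 allows up to 3 UMIs.

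**Figure D2:**
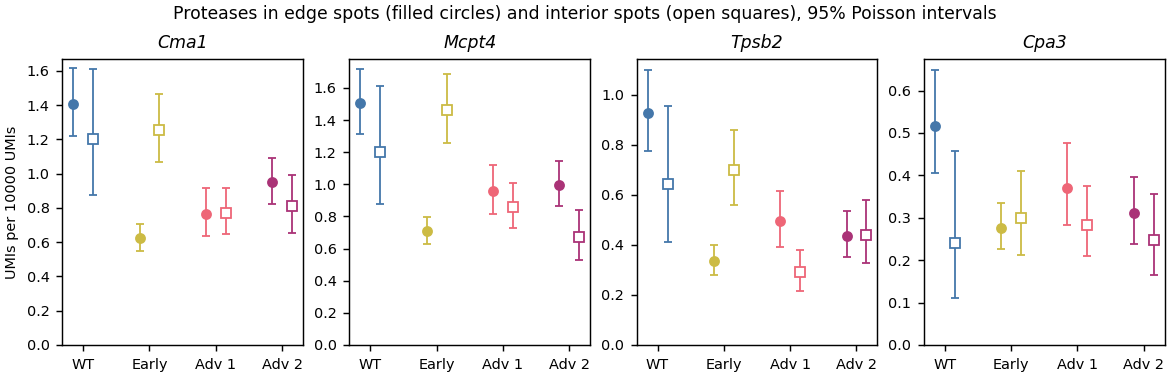
The level of each protease in UMIs per 10000 UMIs in edge spots (filled circles) and interior spots (open squares) of each area, with exact 95% Poisson intervals. On Early the interior lies above the edge for Cma1 (1.26 against 0.625), Mcpt4 and Tpsb2, and on WT the edge has the higher value for all 4.

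With each area as its own block, edgeR called 0 of the 6 genes that passed the filter on low counts (1 at an unadjusted p under 0.05, and 0 by DESeq2), against 7.69% of the 11678 genes tested. Cpa3 had the largest difference of the 6, 0.41 higher at the edge (SE 0.19, adjusted p = 0.206), followed by Hdc (-0.38, SE 0.31), Cma1 (-0.12, SE 0.16), Tpsb2 (0.04, SE 0.21), Mcpt4 (0.00, SE 0.17) and Kit (0.00, SE 0.24). The median over these was 0.00, as for all genes. Fcer1a and Ms4a2 were too sparse for the filter and had 0.25 (SE 0.50) and -0.16 (SE 0.66) without it. In the same test 10 of 11 fat genes rose at the edge, with Adipoq up by 2.97 (SE 0.37, adjusted p = 1.1e-06), while 1 of 22 other mast cell genes did (Srgn, 0.49, SE 0.11, adjusted p = 0.00486). Without the Early area the difference was 0.41 for Mcpt4 (SE 0.15, adjusted p = 0.150) and 0.21 for Cma1 (SE 0.15), and again 0 were called in edgeR, with 3 at an unadjusted p under 0.05.

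Since the areas moved in different directions, the edge difference was also compared between groups, a test added after the values were seen. For Mcpt4 it was 1.34 lower on Early than on WT (SE 0.35, adjusted p = 0.0437) and 1.35 higher on Advanced than on Early (SE 0.27, adjusted p = 0.00159), whereas Advanced and WT differed by 0.01 (SE 0.33). Mcpt4 was the 1 gene of the 7 tested to be called in either, where 0.269% and 0.0408% of all genes were, and 0 of the 7 were called between Advanced and WT (0.237% of all genes, 1 of the 7 at an unadjusted p under 0.05, 0 by DESeq2). The median of the 7 was -1.56 for Early minus WT beside -0.03 for all genes, and 0.99 for Advanced minus Early beside -0.00. The other proteases had the same sign without passing: Early minus WT was -1.21 for Cma1 (SE 0.36, adjusted p = 0.126), -1.56 for Tpsb2 (SE 0.45, adjusted p = 0.107) and -1.18 for Cpa3 (SE 0.64, adjusted p = 0.574), and Advanced minus Early was 1.07 (SE 0.28, adjusted p = 0.136), 1.39 (SE 0.35, adjusted p = 0.104) and 0.42 (SE 0.42, adjusted p = 1.0). The fit has 1 residual degree of freedom, and with DESeq2's size factors the adjusted p for Mcpt4 rose to 0.260 and 0.267. With an edge 2 spots deep, Mcpt4 had -2.92 for Early minus WT and -1.59 for Advanced minus WT.

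The balance of edge and interior also varied for other cells. On Early, sinus macrophage genes had 20.9 UMIs per 10000 at the edge and 41.0 in the interior, against 38.1 and 26.1 on WT, 14.8 and 23.7 on Advanced 1 and 21.3 and 30.1 on Advanced 2. B cell genes had 36.3 and 27.5 on Early, 18.0 and 19.6 on WT, 32.4 and 27.1 on Advanced 1 and 30.7 and 20.3 on Advanced 2. Their part in the Mcpt4 result was not tested.

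Within each area the share of spots with a protease UMI was higher among edge spots, which were deeper. Between areas the share did not follow depth, as the median edge spot held 3166 UMIs on WT and 5594 on Early. It was 53.4%, 45.01%, 33.0% and 41.3% of edge spots and 7.93%, 11.6%, 11.9% and 11.2% of interior spots on WT, Early, Advanced 1 and Advanced 2. With each spot thinned to 1000 UMIs in a random draw, which left out 64 to 123 edge and 496 to 1313 interior spots per area, the edge shares were 30.7% (24.2 to 37.8, exact binomial), 17.3% (13.6 to 21.6), 17.7% (12.6 to 23.9) and 17.0% (12.8 to 21.9), and the interior shares 19.0% (11.3 to 29.1), 21.2% (16.1 to 27.2), 16.3% (12.7 to 20.3) and 19.3% (15.1 to 24.1). Averaged over all possible draws the edge shares were 30.4%, 14.999%, 17.1% and 19.1% and the interior shares 23.0%, 19.9%, 17.1% and 18.1%. In the draw to 1000 UMIs the intervals of edge and interior overlapped on every area, and the edge share of WT lay above those of the other areas. In a draw to 500 UMIs they did not overlap on Early, where the edge share was the lower.

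Spots with at least 3 protease UMIs numbered 70 on WT (62 at the edge), 130 on Early (84), 83 on Advanced 1 (42) and 90 on Advanced 2 (68). These held 81.3%, 78.6%, 65.4% and 63.7% of protease UMIs but 51.6%, 35.7%, 27.0% and 29.6% of all UMIs. That they held a larger share of the protease UMIs follows from how they were chosen. Joined where they touch, they formed 41, 44, 36 and 46 patches, of which 31, 24, 21 and 35 were lone spots. The largest patch had 8, 15, 12 and 18 spots and 18.3%, 14.5%, 15.6% and 13.6% of the protease UMIs, and at most 57 protease UMIs fell in a spot (Early).

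**Figure D3:**
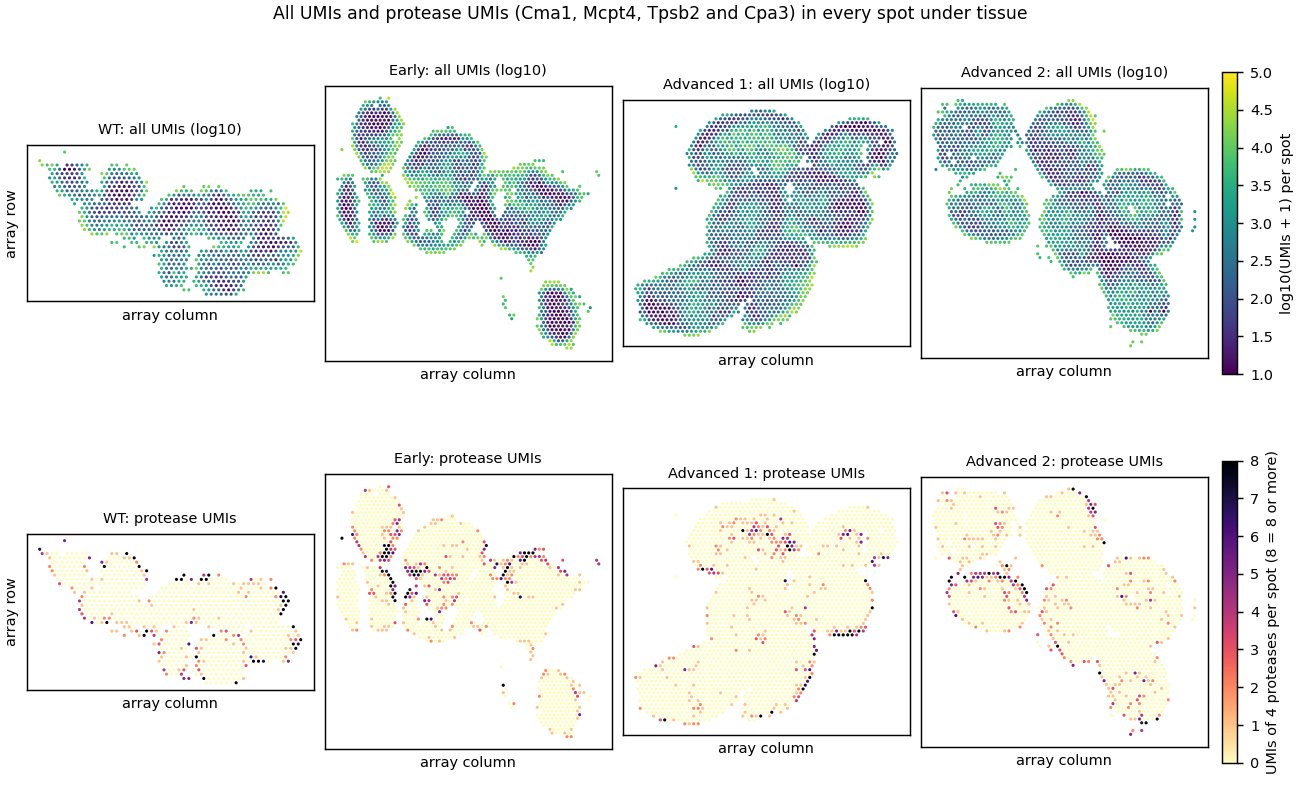
Every spot under tissue at its array column and row, for WT, Early, Advanced 1 and Advanced 2, coloured by log10 of all UMIs (upper row) and by UMIs of the 4 proteases, with 8 standing for 8 or more (lower row). All UMIs are highest along the rims, and protease UMIs lie both at the rim and in the interior, with a protease UMI in 33.0% to 53.4% of edge spots.

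Without thinning, the genes were often detected in the same spots. Among 1173 edge spots with at least 500 UMIs, 342 held Cma1, and 59.4% of those also held Mcpt4, against 20.1% of the 831 spots without Cma1. Of the 206 spots with Cpa3, 61.2% held Cma1, against 22.3% of those without. Among the receptor genes, 66.7% of the 39 spots with Fcer1a and 80.0% of the 20 with Ms4a2 held Cma1. Of the 147 with Kit 54.4% did, against 25.5% of the spots without Kit. The receptor genes were not compared at equal depth, and the part of depth in their shares was not tested. Only 65 of the 1173 spots (5.54%) held all 4 proteases and 566 (48.3%) held none.

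Deeper spots hold more of every gene, so the spots with at least 1000 UMIs were thinned to 1000 in a random draw. The share of Cma1 spots with Mcpt4 was then 35.7% on WT, 15% on Early, 30% on Advanced 1 and 16.7% on Advanced 2, against 14.3%, 4.79%, 6.04% and 4.63% of the spots without Cma1. These shares rest on 3 to 5 spots with both genes per area. Other pairs did not all meet at this depth: Tpsb2 with Mcpt4 was in 9 of 20 Tpsb2 spots on WT and 3 of 9 on Early, but in 0 of 9 on Advanced 1 and 0 of 14 on Advanced 2. Cpa3 with Cma1 was in 0 of 11 Cpa3 spots on WT, 2 of 7 on Early, 0 of 7 on Advanced 1 and 2 of 7 on Advanced 2, and Cma1 with Tpsb2 in 6 of 14, 2 of 20, 0 of 10 and 3 of 24 Cma1 spots. The counts are too small to rank the pairs and are a description.

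**Figure D4:**
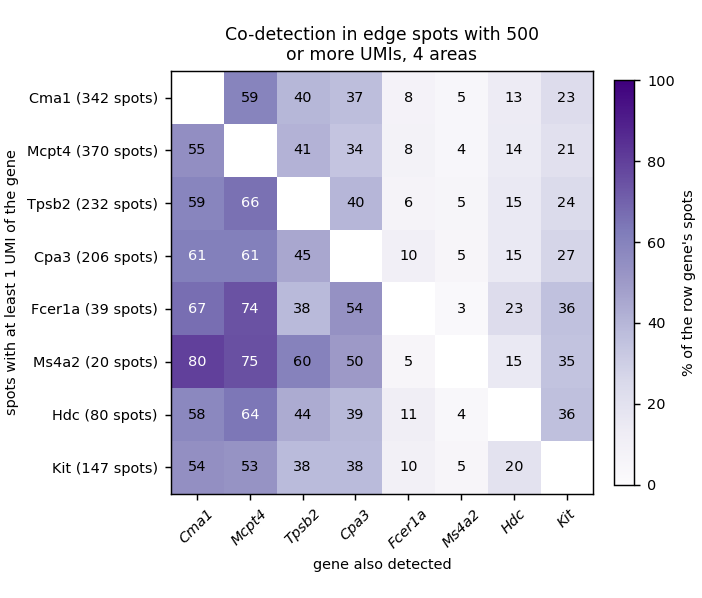
For each gene in a row, the number of edge spots with at least 500 UMIs that held it and, as colour and number, the percent of those spots that also held the gene in the column, over the 4 areas. The columns of Cma1 and Mcpt4 run from 53.1% to 80.0% over the other genes, and the FcεRI chains Fcer1a and Ms4a2 rarely met, as each was in few spots (39 and 20).

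Fat and collagen surround the capsule, so edge spots of each area were divided at the median share of 14 fat genes, none of them a member. On WT, the fat-rich and fat-poor edge had 1.47 and 1.35 Cma1 UMIs per 10000, on Early 0.790 and 0.417, on Advanced 1 0.816 and 0.687 and on Advanced 2 1.24 and 0.619. Cma1 was higher in fat-rich spots on all 4 areas, and the rise was 0.63 (SE 0.14, adjusted p = 0.00306, edgeR with each area as a block). Cpa3 rose by 0.91 (SE 0.21, adjusted p = 0.00295), with 0.569 and 0.455, 0.352 and 0.182, 0.436 and 0.248, and 0.442 and 0.150 per 10000. Mcpt4 rose by 0.41 (SE 0.13, adjusted p = 0.0328), with 1.58 and 1.41, 0.795 and 0.582, 0.983 and 0.935, and 1.24 and 0.737.

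These were 3 of the 6 genes tested, against 11% of all genes. Tpsb2 (0.50, SE 0.19, adjusted p = 0.0921), which was lower in the fat-rich spots of WT (0.834 and 1.05) and higher in those of the other 3 areas, Hdc (0.49, SE 0.36) and Kit (0.24, SE 0.24) did not pass. The median of the 6 was 0.49 beside 0.00 for all genes. Of 19 other genes of the mast cell list, 3 rose (Slc45a3 and the ligand genes Kitl and Il33) and 1 fell (Lat2, -0.61). The calls depended on single areas and on the test: without Advanced 2 none of the 6 passed (adjusted p for Cma1 0.0738), without Early only Cpa3 did (adjusted p = 0.0271), without WT 4 did, and DESeq2's Wald test called none (adjusted p for Cpa3 0.0902), with 3 at an unadjusted p under 0.05. Among interior spots 0 of 6 passed in edgeR (3 at an unadjusted p under 0.05), against 0.506% of all genes.

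Divided by 12 collagen and matrix genes instead, Tpsb2 rose by 0.85 in collagen-rich edge spots (SE 0.19, adjusted p = 0.00533), with 1.02 and 0.829 per 10000 on WT, 0.449 and 0.186 on Early, 0.627 and 0.277 on Advanced 1 and 0.497 and 0.306 on Advanced 2. Cpa3 rose by 0.68 (SE 0.21, adjusted p = 0.0343), with 0.575 and 0.452, 0.359 and 0.168, 0.395 and 0.342, and 0.375 and 0.208. Both were higher in the collagen-rich spots of each area. Cma1 (0.54, SE 0.19, adjusted p = 0.0676), Kit (0.77, SE 0.28, adjusted p = 0.0725), Mcpt4 (0.23, SE 0.18) and Hdc (0.27, SE 0.38) did not pass, so 2 of 6 were called against 11.9% of all genes. The median was 0.61 beside -0.01. Without Early or without Advanced 1 neither passed (Tpsb2, adjusted p = 0.0913 and 0.0535), without Advanced 2 Tpsb2 alone did, without WT 4 genes did, and DESeq2's Wald test called none, with 3 at an unadjusted p under 0.05. In the interior, Cma1 alone rose, by 0.76 (SE 0.19, adjusted p = 0.00753), 1 of 6 against 2.07% of all genes.

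Fat and collagen were themselves found together, and in a fit with both classes no gene kept its call for fat (Cpa3 0.74, SE 0.22, adjusted p = 0.0588) and Tpsb2 kept it for collagen (0.77, SE 0.19, adjusted p = 0.00733). On Early the edge spots rich in both had 2.76 protease UMIs per 10000 (2.51 to 3.02) against 1.104 (0.917 to 1.32) in those poor in both. On WT the values were 3.97 (3.45 to 4.55) and 3.61 (3.05 to 4.26), with higher values in spots rich in only fat (5.39) or only collagen (5.34). On Advanced 1 they were 2.97 (2.60 to 3.37) and 2.57 (2.05 to 3.18), and on Advanced 2 3.59 (3.19 to 4.03) and 1.66 (1.32 to 2.06). The contrast was thus seen on Early and Advanced 2, and the intervals overlapped on WT and Advanced 1. Spots rich in a class were also deeper, with a median of 8983.5 UMIs in fat-rich and 5063.5 in fat-poor edge spots of Early, and the part of depth was not tested.

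The genes whose spot pattern was most like that of the proteases belonged to other neighbours. Over edge spots with at least 500 UMIs, the mean of the Pearson correlations of the 4 areas between log2(UMIs per 10000 + 1) of a gene and of the summed proteases was highest for Cd209b (0.34, a C-type lectin of marginal and sinus macrophages), followed by Ccl8 (0.32), Grn (0.31), Marco (0.31), Ctsb (0.30), C1qb (0.28), Cldn5 (0.28), Apoe (0.27), Plvap (0.27) and Hmox1 (0.26). Most of these are genes of macrophages, and Cldn5 and Plvap are genes of endothelium. The spots of an area share library and depth, and 84.5% of the 9555 genes ranked had a positive value (median 0.04), so the order is a description.

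For this reason edge and interior spots were also divided by the share of 6 sinus macrophage genes (of which Clec4f had 0 UMIs), after the order above was seen. In edge spots, from which that order came, the values are given with no test. Tpsb2 had 1.28 UMIs per 10000 in macrophage-rich and 0.354 in macrophage-poor spots on WT, 0.491 and 0.127 on Early, 0.606 and 0.333 on Advanced 1 and 0.598 and 0.191 on Advanced 2. Cma1 had 1.86 and 0.670, 0.901 and 0.255, 0.871 and 0.636, and 1.34 and 0.449. Both were higher in the rich spots of every area, with a fitted difference of 1.63 (SE 0.21) and 1.40 (SE 0.18), and those of Cpa3, Mcpt4, Kit and Hdc were 1.46, 0.93, 1.05 and 0.96.

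Interior spots come from the same libraries as the edge spots, but were not used for that order. There the summed proteases had 4.89 UMIs per 10000 in macrophage-rich and 1.11 in macrophage-poor spots on WT, 4.88 and 1.41 on Early, 2.69 and 1.54 on Advanced 1 and 3.00 and 1.36 on Advanced 2. Cma1 rose by 1.77 (SE 0.24, adjusted p = 1.2e-06), Mcpt4 by 1.13 (SE 0.21, adjusted p = 0.00024), Tpsb2 by 1.17 (SE 0.33, adjusted p = 0.0169) and Cpa3 by 1.13 (SE 0.37, adjusted p = 0.0385) in edgeR's test. These were 4 of the 6 genes tested, against 7.39% of all genes, and the median of the 6 was 1.13 beside 0.00. Hdc (1.103, SE 0.63) and Kit (-0.31, SE 0.37) did not pass. Without WT, Early or Advanced 2 the count was 2 and without Advanced 1 it was 3. In the same interior spots 3 of 11 other mast cell genes rose (Fcer1g, Il33 and Cd63), all of which other cells use as well.

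Spots were divided by 4 lymphatic endothelial genes (Lyve1, Prox1, Pdpn and Flt4) in the same way. In edge spots, again as values with no test, the differences were 0.94 (SE 0.15) for Cma1, 0.94 (SE 0.24) for Cpa3, 0.82 (SE 0.19) for Tpsb2, 0.78 (SE 0.29) for Kit and 0.70 (SE 0.14) for Mcpt4. In interior spots Mcpt4 rose by 0.83 (SE 0.21, adjusted p = 0.00534) and Cma1 by 0.61 (SE 0.20, adjusted p = 0.0486), 2 of 6 against 7.78% of all genes, and 6 of 12 other mast cell genes rose and 1 fell, while Tpsb2 (0.16), Cpa3 (0.34), Hdc (0.41) and Kit (-0.70) did not pass. Without the Early area neither passed, and without WT or Advanced 1 the count was 1.

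With the macrophage, fat and collagen classes of the edge spots in the same fit, none of the 4 proteases passed for fat (Cma1 0.26, SE 0.18; Cpa3 0.52, SE 0.28) or for collagen (Tpsb2 0.49, SE 0.22; Cma1 0.13, SE 0.18). That fit tested 5770 genes, since spots were spread over more libraries, and Hdc and Kit were too sparse for it.

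**Figure D5:**
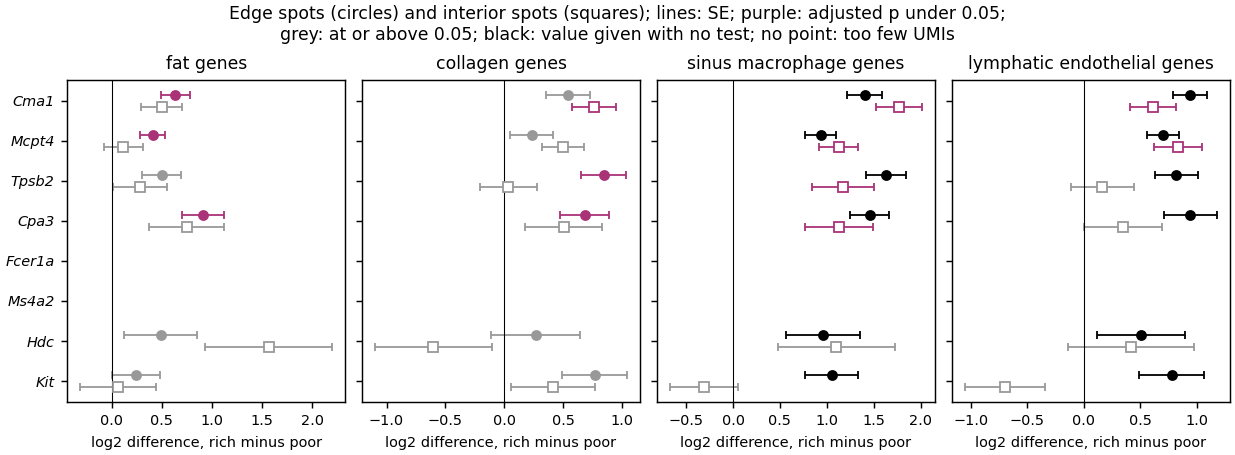
Log2 difference of each gene between spots rich and poor in fat, collagen, sinus macrophage or lymphatic endothelial genes, for edge spots (circles) and interior spots (squares), with SE as lines. Purple marks an adjusted p under 0.05, grey none, and black values given with no test. The proteases lie furthest to the right for sinus macrophage genes (0.93 to 1.77), and Kit in the interior lies left of 0 there (-0.31).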

How the data were processed

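The submitters' processing notes name Space Ranger 1.1.0, Seurat 4.0.3, R 4.1.1 and the build mm10 (GRCm38). The deposited values were UMI counts per gene and spot, as made by the authors with Space Ranger, with no normalization, and the array position of every spot. The sections of all 4 areas shared a slide. Counts were summed per area, or per area and class of spots, and tested with edgeR 4.0.16 (TMM, filterByExpr, glmQLFit and glmQLFTest, Benjamini-Hochberg over all genes that passed the filter, threshold 0.05) in R, with DESeq2 1.42.0 as an alternative. Standard errors are Wald errors from edgeR's quasi-likelihood variance. Spots used for classes, co-detection and correlations held at least 500 UMIs. Intervals are exact Poisson, conditional binomial or binomial at 95% and cover counting error only. In the fits between groups edgeR gave all genes a shared spread. The tests were run on simulated counts in which all genes and areas had the same spread. That run therefore cannot check whether the spread of the Advanced areas holds for WT and Early. The named genes were all 8 members, other mast cell genes with at least 20 UMIs, and the 10 genes of most similar spot pattern. Members and lists were chosen with earlier results of these data known. Comparisons of the edge difference between groups, the divisions by macrophage and lymphatic endothelial genes and those of interior spots by fat and collagen were added after the data were seen.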

Additional observations from a re-analysis of the deposited data

Results flagged for a closer look

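The difference between edge and interior spots was not alike in the groups for Mcpt4, as tested by a separate edge difference for each group. It was -1.34 on the log2 scale for Early minus WT (SE 0.35, edgeR's quasi-likelihood test, adjusted p = 0.0437) and 1.35 for Advanced minus Early (SE 0.27, adjusted p = 0.00159). Both share the Early area, on which Mcpt4 had 0.706 UMIs per 10000 at the edge and 1.46 in the interior. The size of the difference stayed near these values with DESeq2's size factors (-1.31 and 1.35), without a filter on low counts (-1.32 and 1.34) and with DESeq2's Wald test (-1.31 and 1.36), but neither call held (adjusted p = 0.260 and 0.267, 0.945 and 1.0, and 1.0 and 1.0). In spots with at least 500 UMIs edgeR's adjusted p was 0.117 and 0.00183. Without the spot richest in proteases of each area it was 0.140 and 0.0477, and with an edge 2 spots deep it was 0.000639 and 0.0509. With that deeper edge the size moved as well, to -2.92 for Early minus WT, and Advanced minus WT was -1.59. How far Advanced lay from WT thus depended on the definition of the edge. Advanced minus Early stayed between 1.15 and 1.38 over these settings.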

How the results depend on the processing

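Depth sets the main limit: interior spots held a median of 140.5 to 250.5 UMIs, and Fcer1a and Ms4a2 at most 22 and 17 UMIs on an area. No pairing between groups was possible, as WT and Early had 1 area each. Comparisons between classes of spots were made within areas, with each area as its own block. The cause of the changes below was not tested. With DESeq2's Wald test the number of the 8 genes called was 0 for Advanced and Early against WT, for fat, for collagen and for both edge differences of Mcpt4, 2 for macrophages and 1 for lymphatic endothelium in the interior. DESeq2's size factors gave 0 for both edge differences and 1 for lymphatic endothelium, and no filter on low counts gave 0 for both edge differences and 4 for collagen. With an edge 2 spots deep the edge differences gave 2 (Early minus WT), 1 (Advanced minus WT) and 0 (Advanced minus Early), and Early minus WT gave 0 with at least 500 UMIs per spot and 0 without the spot richest in proteases, which left 1 for lymphatic endothelium. Edge spots alone gave 1 for Advanced against WT, and interior spots 0 for Advanced and 0 for Early. Taking as rich only the spots with the highest shares gave 1 for fat and 1 for collagen. Fat and collagen in the same fit gave 0 and 1, and with macrophages 0 and 0. Leaving out an area gave 0 to 4 for fat, 0 to 4 for collagen, 2 to 3 for macrophages and 0 to 2 for lymphatic endothelium.

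Thinned to 500 UMIs in a random draw, the share of edge spots with a protease UMI was 20.2%, 5.20%, 12.2% and 9.01% (WT, Early, Advanced 1 and Advanced 2) and of interior spots 9.42%, 11.9%, 10.8% and 10.1%. On Early the intervals of that draw did not overlap (3.25 to 7.84 at the edge, 8.46 to 16.1 in the interior). Averaged over all possible draws the shares were 17.7%, 8.04%, 9.13% and 10.3%, and 11.8%, 10.9%, 9.12% and 9.10%, which moved Early at the edge by over 1.5 times and turned the order of the Advanced areas. Not thinned, these were 53.4%, 45.01%, 33.0% and 41.3%, and 7.93%, 11.6%, 11.9% and 11.2%.

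These differences changed sign. Of them only Tpsb2 in Early against WT was called as reported above, and none was called with the changed sign. Between edge and interior, Kit had 0.00094 with DESeq2's size factors, 0.015 without a filter, 0.11 with DESeq2's Wald test and 0.023 without the richest spot, Mcpt4 had -0.0043 with positions off the array as edge, -0.039 from 500 UMIs and -0.029 without the richest spot, and Tpsb2 had -0.026 from 500 UMIs. Without an area, Mcpt4 lay between -0.18 and 0.41, Tpsb2 between -0.22 and 0.49, Kit between -0.17 and 0.17 and Cma1 between -0.25 and 0.21. For the edge differences, Hdc had 0.28 (Early minus WT) and 0.30 (Advanced minus WT) and Mcpt4 -1.59 (Advanced minus WT) with an edge 2 spots deep, Cma1 0.039 from 500 UMIs and Mcpt4 -0.019 without the richest spot. In edge spots alone Kit had -0.069 for Advanced against WT, and against Early Mcpt4 had 0.40, Tpsb2 0.40 and Fcer1a 0.0076. In interior spots Cpa3 had 0.068 for Advanced against WT, Cma1 -0.69, Cpa3 -0.18 and Hdc -0.33 for Advanced against Early, and Mcpt4 0.22, Tpsb2 0.060, Cpa3 0.25 and Kit 2.01 for Early against WT. With fat and collagen in the same fit Kit had -0.0027 for fat, and with macrophages Mcpt4 had -0.035 for collagen. When an area was left out, collagen gave -0.11 to 0.43 for Mcpt4 and -0.077 to 0.59 for Hdc, macrophages in the interior -0.58 to 0.053 for Kit, and lymphatic endothelium in the interior -0.45 to 0.49 for Tpsb2 and -0.085 to 0.23 for Hdc, in each case with the changed sign without Early, or for Kit without Advanced 1.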
